A study of Mus musculus with 16 samples.

Results

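The genes described are those of the nuclear-encoded subunits of the mitochondrial respiratory chain and of the ATP synthase, measured in mouse hearts. They were taken by symbol: all symbols starting with Ndufa, Ndufb, Ndufc, Ndufs, Ndufv or Uqcr, the symbols Sdha to Sdhd and Cyc1, symbols starting with Cox4 to Cox8, and symbols starting with Atp5, with the Ndufaf assembly factors left out. Of 19938 gene symbols with a probe set of their own, 83 met this rule, and each was represented by its probe set of highest mean over 16 arrays. Complex I contributed 36 genes, complex II 4, complex III 9, complex IV 17 and the ATP synthase (complex V) 17. Of these, 81 passed the filter on low values and were tested, and Cox6b2 and Cox7b2, isoforms known from testis, did not pass it. Ndufb4 and Cox7c have no value here, because their probe sets carry a second symbol.

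The hearts came from male C57BL/6 mice in 4 groups of 4 mice, with 1 array per mouse. The groups were Zbtb17 conditional knockout (cKO) mice after transverse aortic constriction (TAC), cKO mice after sham surgery, control mice after TAC and control mice after sham surgery. Mice were 8 to 10 weeks old before surgery, and hearts were collected 4 weeks after it. Zbtb17 encodes Miz1, a zinc finger transcription factor, and TAC narrows the aorta so that the left ventricle pumps against a higher pressure. The labels name neither the Cre driver nor the exons deleted, and give no genotype for the control mice beyond the word control.

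Heart muscle makes most of its ATP by oxidative phosphorylation, and its cells are densely packed with mitochondria. Complex I takes electrons from NADH and complex II takes them from succinate, both pass them to coenzyme Q, complex III passes them on to cytochrome c, and complex IV gives them to oxygen. Complexes I, III and IV pump protons out of the matrix, and the ATP synthase uses their return to make ATP. Most subunits are encoded in the nucleus, with a small core encoded by mitochondrial DNA, except in complex II, whose subunits are all nuclear. Lower levels of oxidative phosphorylation transcripts are a known feature of hearts failing under pressure load.

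The transcription factors NRF1, YY1 and the estrogen-related receptors (ERR) are known regulators of such genes, so RefSeq promoter windows (build GRCm38.p6, 250 bases before to 50 after the start) were searched on both strands. Windows matched 67 of the 83 genes, 72 windows in all. The NRF1 letters GCATGCGC were present in 10 of the 72 windows (13.9%), against 2.71% of 32851 windows of all genes. The YY1 letters AAGATGGCG were present in 7 (9.72%, against 1.4%), and the ERR letters TCAAGGTCA in 2 (2.78%, against 0.423%). The motifs do not overlap one another in the sequences shown, except that the NRF1 letters on opposite strands overlap in Cox6a1. The promoters of 4 genes are shown because the values below turn on Cox6a1, Ndufs5 and the complex II subunits. Each is the 250 bases before the start, 5′ to 3′ on the gene's strand, with the NRF1 letters in capitals.
Cox6a1: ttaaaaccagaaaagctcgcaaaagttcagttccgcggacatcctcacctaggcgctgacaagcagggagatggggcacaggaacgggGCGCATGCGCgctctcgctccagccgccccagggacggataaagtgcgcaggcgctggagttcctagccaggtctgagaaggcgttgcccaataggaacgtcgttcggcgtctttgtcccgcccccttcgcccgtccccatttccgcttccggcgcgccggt
Sdhb: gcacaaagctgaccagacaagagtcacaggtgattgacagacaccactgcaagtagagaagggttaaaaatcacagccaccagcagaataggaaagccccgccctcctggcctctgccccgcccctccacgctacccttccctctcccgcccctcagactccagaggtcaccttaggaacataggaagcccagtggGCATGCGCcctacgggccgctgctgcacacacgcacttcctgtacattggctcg
Ndufs5: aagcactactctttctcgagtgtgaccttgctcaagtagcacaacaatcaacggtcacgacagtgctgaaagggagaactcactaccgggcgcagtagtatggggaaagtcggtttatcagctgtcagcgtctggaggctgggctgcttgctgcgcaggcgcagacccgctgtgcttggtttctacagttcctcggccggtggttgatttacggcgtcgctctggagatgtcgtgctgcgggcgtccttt
Sdhd: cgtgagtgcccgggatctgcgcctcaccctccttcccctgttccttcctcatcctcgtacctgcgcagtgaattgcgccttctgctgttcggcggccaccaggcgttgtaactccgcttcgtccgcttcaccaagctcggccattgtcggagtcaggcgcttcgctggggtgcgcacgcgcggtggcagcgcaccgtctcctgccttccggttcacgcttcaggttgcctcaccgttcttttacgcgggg
The Cox6a1 sequence is chr5:115348959-115349208 on the minus strand, Sdhb is chr4:140961021-140961270 on the plus strand, Ndufs5 is chr4:123718187-123718436 on the minus strand and Sdhd is chr9:50603850-50604099 on the minus strand. The ERR letters of the Sdhd window lie outside the 250 bases shown, and no searched letters were found in the Ndufs5 window. Of the other complex II genes, Sdha, not shown, had a window with none of the searched letters, and Sdhc had no window. A match describes letters only and shows no binding.

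Values are log2 intensities as deposited, and a probe set's level is not set against that of another probe set. The array medians lay between 4.85 and 4.975, and Spearman correlations between arrays between 0.972 and 0.987. Zbtb17 itself had values of 6.47 to 6.52 in cKO TAC hearts, 6.47 to 6.62 in cKO sham hearts, 6.3 to 6.56 in control TAC hearts and 6.19 to 6.5 in control sham hearts, so the Zbtb17 values do not separate the genotypes. The sources used here do not say whether the Zbtb17 probes lie in the deleted part. Cardiomyocyte markers were high on every array, with Myh6 at 12.88 to 13.42 and Tnnt2 at 13.4 to 13.62. Of the listed markers, Myl2 lay at 12.55 to 12.89 in cKO hearts and at 13.2 to 13.27 in control hearts, without overlap. Mybpc3 tended the other way, at 12.09 to 12.34 in cKO hearts against 11.63 to 12.25 in control hearts, with overlap.

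Some arrays stood apart before any group was compared. On 6 arrays Myl7, the atrial regulatory myosin light chain, lay above 6 (6.07 to 8.83), against 4.3 to 5.2 on the others. These were cKO TAC replicates 1 and 2, cKO sham replicate 2, control TAC replicates 1 and 2 and control sham replicate 3. All 7 listed atrial markers were on the array and 6 passed the filter, with Bmp10 below it at 3.44 to 3.81. Their summed level was 11.693 to 13.89 in cKO TAC hearts, 11.85 to 12.712 in cKO sham hearts, 10.876 to 12.988 in control TAC hearts and 11.393 to 12.784 in control sham hearts (log2 of the sum). Nppa (9.86 to 13.27) was the highest of these markers on every array and weighs most in the sum. Its lowest value was on control TAC replicate 1, among the arrays of high Myl7, so the sum does not follow the Myl7 split. Atf3, a stress-response transcription factor, lay above 8 (8.45 to 10.18) on cKO sham replicate 1 and control sham replicates 3 and 4, and at 6.13 to 7.26 elsewhere. How far atrial tissue or stress enters the values below was not tested. For many of the results below, values without these arrays are also given, from smaller groups. Without those of high Myl7, only replicates 3 and 4 are left in both TAC groups, and each sham group lacks 1 heart. Without those of high Atf3, control sham keeps replicates 1 and 2, and cKO sham lacks 1 heart.

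The mean level of the subunits varied from heart to heart, with the largest spread in the cKO TAC group. On cKO TAC replicate 2, the array with the highest Myl7 (8.83), 75 of 81 subunits lay below their own mean over the 16 arrays, by 0.194 on average (log2). The other cKO TAC hearts had mean deviations of -0.0194, -0.0186 and 0.0328 (replicates 1, 3 and 4). Means ranged from -0.0799 to 0.0664 in cKO sham hearts, from -0.0133 to 0.0918 in control TAC hearts and from -0.0629 to 0.1009 in control sham hearts. The group means were -0.0498 ± 0.0992 in cKO TAC, 0.0002 ± 0.0682 in cKO sham, 0.0451 ± 0.0513 in control TAC and 0.0045 ± 0.069 in control sham hearts (SD, n = 4 each), and all 4 groups overlapped. In RNA of heart tissue, fewer cardiomyocytes and less RNA per cardiomyocyte cannot be told apart.

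Markers of other cell types were also read in each group, as the log2 of their summed level. The 7 macrophage markers lay at 10.239 to 11.113 in cKO TAC hearts, 9.952 to 10.229 in cKO sham hearts, 10.285 to 11.079 in control TAC hearts and 9.768 to 10.502 in control sham hearts, so that the cKO TAC and cKO sham hearts did not overlap. The 8 fibroblast markers had medians of 13.035 in cKO TAC, 12.867 in cKO sham, 13.053 in control TAC and 12.704 in control sham hearts, with overlap. The 7 endothelial markers had medians of 12.266 in cKO TAC, 12.124 in cKO sham, 12.484 in control TAC and 12.224 in control sham hearts, with overlap between the groups compared. The 10 cardiomyocyte markers had medians of 16.474 in cKO TAC, 16.525 in cKO sham, 16.457 in control TAC and 16.499 in control sham hearts, again with overlap. This sum does not show the Myl2 difference between cKO and control hearts given above. Of 6 skeletal muscle markers 4 passed the filter. The sum of all 6 lay at 12.805 to 12.952 in cKO sham hearts against 12.755 to 12.792 in control sham hearts, without overlap. Ckm (12.52 to 12.97 over all arrays) made up nearly all of that sum, and the rest lay at 3.75 to 5.68. The sum thus follows Ckm alone and is no measure of skeletal muscle. The 7 markers of smooth muscle cells and pericytes and the adipocyte markers, 2 of 4 on the array past the filter, overlapped between all groups compared. On cKO TAC replicate 2, where the subunits lay lowest, the cardiomyocyte sum was the lowest of all arrays (16.325). The fibroblast sum (13.444) and the macrophage sum (11.113) were the highest of all arrays there. The part of these cell types in the subunit values was not tested.

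**Figure D1:**
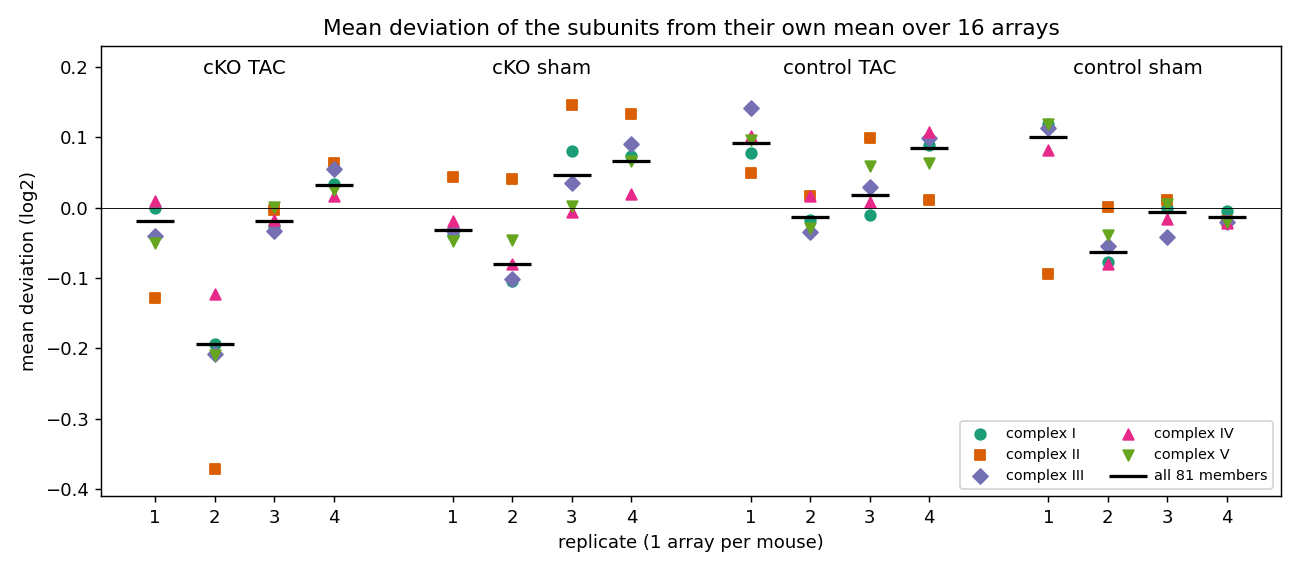
Mean deviation (log2) of the tested subunits from each subunit's own mean over 16 arrays, for each heart (x axis: replicates within 4 groups); coloured symbols are complexes and black lines all 81 subunits. cKO TAC replicate 2 lies lowest at -0.194, with complex II at -0.3712, and the groups overlap.

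No subunit gene passed an adjusted p of 0.05 (limma, Benjamini-Hochberg over 21333 probe sets) in any comparison. Few genes of any kind did: 0 probe sets (0%) for TAC over sham in cKO hearts, 0% for TAC over sham in control hearts, 1 probe set (0.00469%) for cKO over control after TAC and 5 (0.0234%) for cKO over control after sham. Averaged over surgery, cKO over control had 4 (0.0188%), TAC over sham averaged over genotype had 0 (0%), and the interaction, the TAC effect in cKO minus the TAC effect in control, had 0 (0%). The differences below are therefore described by their size, their standard error, an unadjusted p under 0.05 and the overlap of the groups, each read against all probe sets tested.

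After TAC, subunit genes lay mostly lower in cKO than in control hearts. Of 81 genes, 63 had a log2 fold change below 0 and 18 above 0, where 51.2% of all probe sets were below and 47.9% above. The median of the subunits was -0.085, against -0.005 for all probe sets. At an unadjusted p under 0.05, 14 subunits (17.3%) were lower, against 3.75% of all probe sets, and 0 were higher, against 3.83%. The 14 were Ndufs5 and Ndufa13 (complex I), Sdhc (II), Uqcrfs1 and Uqcr11 (III), Cox6a1, Cox6a2, Cox4i1 and Cox5a (IV), and Atp5e, Atp5k, Atp5mpl, Atp5o and Atp5g3 (V), with adjusted p from 0.411 to 0.644. In 3 of them, Cox6a1, Uqcrfs1 and Ndufa13, every cKO TAC heart lay below every control TAC heart, which 1.89% of all probe sets did, while 0 subunits were higher without overlap, against 2.38%.

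These counts rested in part on single arrays. Without cKO TAC replicate 2, 50 subunits lay below 0 and 31 above, the median was -0.0242 and 5 were lower at an unadjusted p under 0.05, against 3.15% of all probe sets. Without control TAC replicate 1, 7 were lower at that threshold, against 2.38% of all probe sets, and without control TAC replicate 4, 8 were, against 3.23%. Other omissions raised the count, to 19 without cKO TAC replicate 4 (3.63%), 18 without control sham replicate 1 (4.36%) and 16 without control TAC replicate 2 (4.23%). Without the 6 arrays of high Myl7, 46 lay below 0 and 32 above (49.9% and 48.8% of all probe sets), and the median was -0.04, against 0. At an unadjusted p under 0.05, 2 were then lower and 2 higher, near the 2.27% and 2.1% of all probe sets. With fewer hearts, the share of all probe sets lower at that threshold also fell, from 3.75% to 2.27%.

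After sham surgery the subunits split nearly evenly between higher and lower in cKO than in control hearts. Of 81 subunits, 37 lay above 0 and 44 below in cKO over control, near the 50.1% and 49.2% of all probe sets. The median was -0.0075, against 0.0025. At an unadjusted p under 0.05, 2 subunits were higher, Sdhd and Uqcrc2 (5.96% of all probe sets were), and 1, Ndufa3, was lower (4.72%). Sdhd was higher without overlap (2.95% of all probe sets were), and 0 subunits were lower without overlap (2.32%). With every array centred on its median, 58 subunits lay above 0 and 23 below (66.1% and 33.9% of all probe sets), and without control sham replicate 1, 53 lay above and 28 below. Without control sham replicate 2, 30 lay above and 51 below.

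The TAC effect lay mostly below 0 in cKO hearts. In control hearts it lay mostly above 0, with a median near that of all probe sets. In cKO hearts, 25 subunits lay above 0 and 55 below for TAC over sham, where 51.6% of all probe sets were above and 47.5% below, with a median of -0.0475 against 0.0075. In control hearts, 54 lay above 0 and 24 below, where 54.5% of all probe sets were above and 44.7% below, with a median of 0.0225 against 0.015. With quantile normalization, 44 lay above 0 and 37 below in control hearts, where 51.8% and 48.1% of all probe sets were. In cKO hearts 4 subunits were lower at an unadjusted p under 0.05 (Sdha, Sdhc, Ndufs1 and Atp5a1, against 2.93% of all probe sets) and 0 were higher (3.85%). In control hearts 3 were higher (Cox6a1, Ndufs5 and Atp5d, against 4.9%) and 1, Ndufb9, was lower (3.42%). Without cKO TAC replicate 2, 38 subunits lay above 0 and 43 below in cKO hearts, with a median of -0.0075 and 0 at an unadjusted p under 0.05 (2.33% of all probe sets were higher and 1.73% lower). The number lower at that threshold in cKO hearts was 9 without cKO TAC replicate 4 (3.34% of all probe sets), without cKO sham replicate 3 (2.94%) or without control sham replicate 1 (3.5%). It was 7 without cKO TAC replicate 3 (3.46%) and 1 without cKO sham replicate 4 (2.52%). Without the arrays of high Myl7, 35 lay above 0 and 45 below in cKO hearts, with 0 at an unadjusted p under 0.05 (1.82% of all probe sets were higher and 1.33% lower), and 53 above and 27 below in control hearts. Without control sham replicate 1, 8 subunits were higher after TAC in control hearts, against 6.85% of all probe sets. Without the 3 arrays of high Atf3, 21 lay above 0 and 59 below in cKO hearts, and 48 above and 32 below in control hearts.

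Groups without overlap were rare for TAC. In cKO hearts Atp5md, a small subunit of the ATP synthase membrane part, was higher without overlap (2.28% of all probe sets were), and Sdha and Ndufa13 were lower (2.08%). In control hearts Sdhd was higher without overlap (2.27%) and 0 subunits were lower (1.46%). Atp5md differed by 0.075 ± 0.0672 (adjusted p = 0.867), with cKO TAC values of 13.24, 13.21, 13.18 and 13.26 and cKO sham values of 13.16, 13.15, 13.14 and 13.14.

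The difference between the TAC effects was tested as an interaction. It was below 0 for 62 subunits and above 0 for 18, where 52.8% of all probe sets were below and 46.5% above. The median was -0.095, against -0.0125. At an unadjusted p under 0.05, 4 subunits were below 0, Cox6a1, Ndufs5, Sdhc and Sdhd (2.05% of all probe sets were), and 0 above (1.65%), all with an adjusted p of 1. Without cKO TAC replicate 2 the split was 54 below and 26 above, and the median was -0.0325, and without the arrays of high Myl7 it was 59 below and 22 above, with a median of -0.0567. Averaged over surgery, 12 subunits were lower in cKO than in control hearts and 1, Uqcrc2, was higher at an unadjusted p under 0.05, against 6.68% and 8.24%. The 12 became 7 without cKO TAC replicate 2 (6.51% of all probe sets), cKO sham replicate 2 (5.88%) or control sham replicate 1 (6.06%), and 6 without control TAC replicate 1 (5.09%). They became 7 without the arrays of high Atf3 (7.87%), 3 with every array centred on its median (3.53%) and 1 without the arrays of high Myl7 (3.11%). Without the arrays of high Atf3 or of high Myl7, and with centring, the counts thus lay near or below the background. Averaged over genotype, 3 subunits were lower after TAC (Ndufa5, Ndufs1 and Sdha) and 2 higher (Cox6a1 and Ndufa4l2), against 4.8% and 7.24%. Without the arrays of high Myl7, 0 were lower and 1 higher, against 1.69% and 2.88%. These comparisons share arrays: the control TAC hearts enter the TAC effect in control hearts, the genotype difference after TAC and the interaction. The cKO TAC hearts enter the TAC effect in cKO hearts, the genotype difference after TAC and the interaction.

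**Figure D2:**
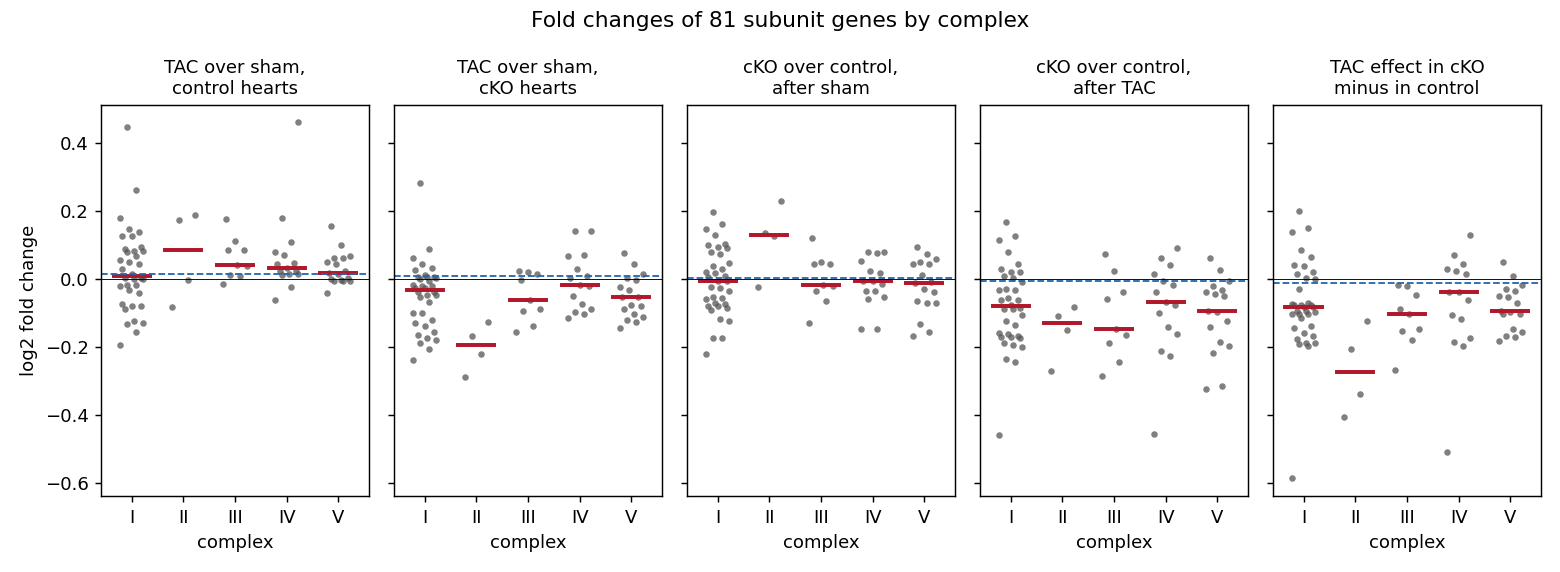
Log2 fold changes of the 81 tested subunit genes (y axis, 1 point per gene) by complex (x axis) in 5 comparisons; red bars are medians of a complex and the dashed blue line the median of all 21333 probe sets. All 4 complex II points lie below 0 for TAC over sham in cKO hearts, with a median of -0.1938, and all 9 complex III points lie below 0 in the interaction panel, against 7 without the arrays of high Myl7.

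Complex II, succinate dehydrogenase, links the citric acid cycle to the chain, and all 4 of its subunits lay below 0 for TAC over sham in cKO hearts (median -0.1938), for cKO over control after TAC (median -0.13) and in the interaction (median -0.2738). These 3 comparisons share the cKO TAC hearts, and complex II has the fewest members of the complexes. No other complex had all its members below 0 in all 3, while complex III had all 9 in the interaction. Without the arrays of high Myl7, 7 of those 9 were below 0 (Uqcrb and Uqcrq were above), and without the arrays of high Atf3, 8 were. The complex III interaction median was -0.1025, or -0.0325 without cKO TAC replicate 2. Leaving out cKO TAC replicate 2, where complex II had a mean deviation of -0.3712, left each of the 4 complex II genes below 0 in the TAC effect in cKO hearts and in the interaction. Of the 4, 3 were then below 0 for cKO over control after TAC and Sdha was above, with a median of -0.0371. Without the 6 arrays of high Myl7, the complex II median was -0.0658 for TAC over sham in cKO hearts and -0.1608 in the interaction, each with all 4 genes below 0. It was then -0.0225 for cKO over control after TAC, with Sdhb and Sdhc below 0 and Sdha and Sdhd above. In that comparison complex II thus had no shared direction in TAC replicates 3 and 4 alone.

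Sdha, the flavoprotein that oxidises succinate, had values of 11.86, 11.63, 12.15 and 12.06 in cKO TAC hearts, against 12.22, 12.27, 12.16 and 12.21 in cKO sham hearts. Every cKO TAC heart lay below every cKO sham heart, by 0.01 at the closest pair. The difference was -0.29 ± 0.11 (adjusted p = 0.726), -0.1917 without cKO TAC replicate 2 and -0.0917 without the arrays of high Myl7. In control hearts Sdha ranged from 11.87 to 12.2 after TAC and from 11.86 to 12.33 after sham, a difference of -0.0825 ± 0.1108 with wide overlap (adjusted p = 0.862).

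Sdhb, the iron-sulfur subunit that passes electrons from the flavin towards coenzyme Q, had values of 11.24, 11.01, 11.4 and 11.44 in cKO TAC hearts and 11.37, 11.25, 11.42 and 11.56 in cKO sham hearts, and the groups overlapped. Its difference was -0.13 ± 0.09 in cKO hearts (adjusted p = 0.802), or -0.04 without cKO TAC replicate 2 and -0.03 without the arrays of high Myl7. It was -0.0025 ± 0.0861 in control hearts (adjusted p = 0.996). The sign of the value in control hearts changed under several alternatives, so that it has no direction.

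Sdhc and Sdhd anchor the enzyme in the inner membrane and form its coenzyme Q site. Sdhc had values of 11.1, 10.87, 11.01 and 11.27 in cKO TAC hearts and 11.29, 11.26, 11.23 and 11.35 in cKO sham hearts. It had 11.49, 11.32, 11.29 and 11.24 in control TAC hearts and 11.14, 10.9, 11.36 and 11.19 in control sham hearts. Only cKO TAC replicate 4 reached the range of the cKO sham or control TAC hearts. The differences were -0.22 ± 0.09 for TAC in cKO hearts (adjusted p = 0.726), 0.19 ± 0.09 for TAC in control hearts (adjusted p = 0.615) and -0.27 ± 0.09 for cKO over control after TAC (adjusted p = 0.563). The interaction was -0.41 ± 0.13 (unadjusted p = 0.00787, adjusted p = 1). Without the arrays of high Myl7, the genotype difference after TAC was -0.125, and without those of high Atf3 the TAC difference in control hearts was 0.315.

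Sdhd was lowest in the control sham group and had the narrowest spread there. Its values were 10.45, 10.17, 10.59 and 10.65 in cKO TAC hearts and 10.46, 10.55, 10.94 and 10.58 in cKO sham hearts. They were 10.57, 10.5, 10.56 and 10.67 in control TAC hearts and 10.39, 10.43, 10.37 and 10.42 in control sham hearts. All control TAC and all cKO sham hearts lay above all control sham hearts, while cKO TAC hearts spanned both. The differences were 0.17 ± 0.10 for TAC in control hearts (adjusted p = 0.676), 0.23 ± 0.10 for cKO over control after sham (adjusted p = 0.455) and -0.34 ± 0.15 for the interaction (adjusted p = 1).

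**Figure D3:**
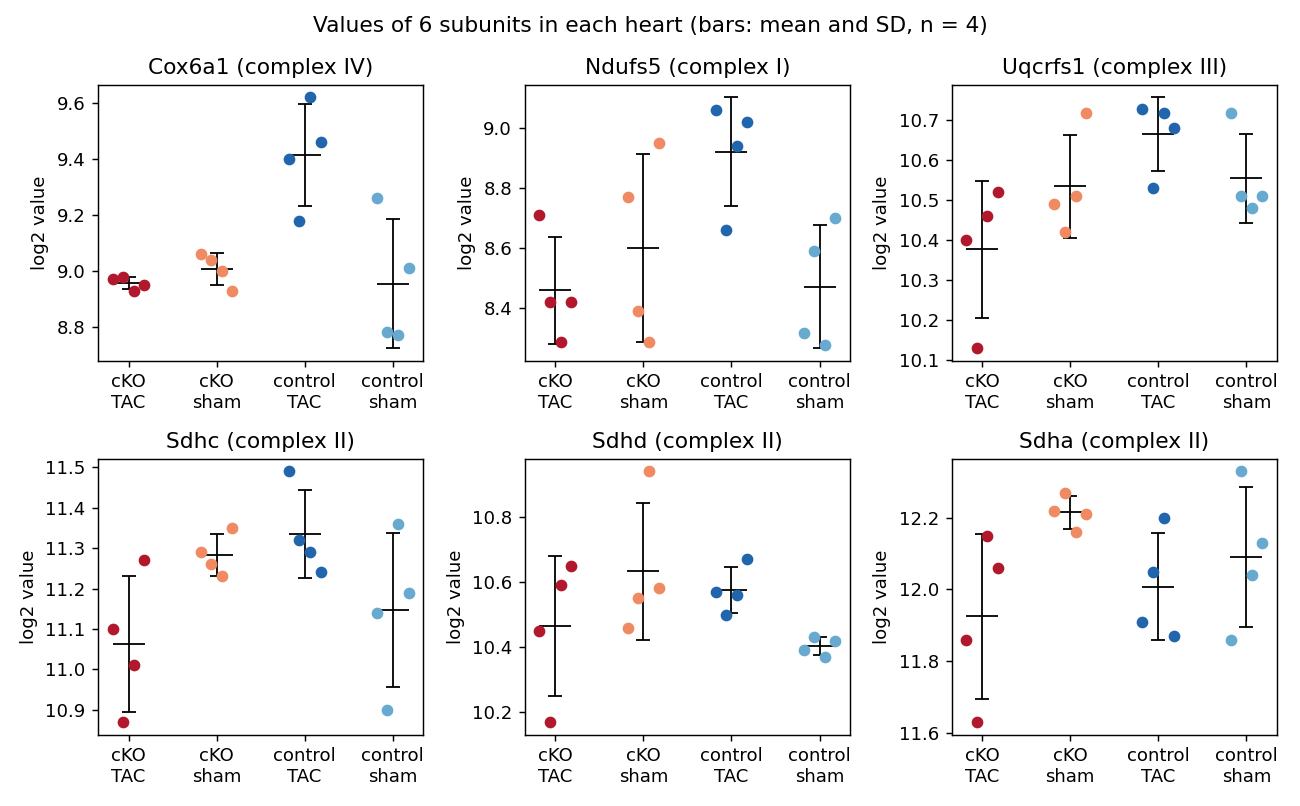
Log2 values (y axis) of 6 subunit genes in each of 16 hearts (points) by group (x axis), with the mean and SD of 4 hearts. Cox6a1 lies between 8.93 and 8.98 in cKO TAC hearts and between 9.18 and 9.62 in control TAC hearts, and Sdha lies lower in every cKO TAC than in every cKO sham heart.

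Complex I is the largest of the complexes, and Ndufs5, an accessory subunit needed for its assembly, had the widest differences of its members for TAC in control hearts, for cKO over control after TAC and in the interaction. Ndufs5 had values of 8.71, 8.42, 8.29 and 8.42 in cKO TAC hearts and 8.77, 8.39, 8.29 and 8.95 in cKO sham hearts. It had 9.06, 8.66, 8.94 and 9.02 in control TAC hearts and 8.32, 8.59, 8.28 and 8.7 in control sham hearts. The control TAC group was highest, and in both comparisons 1 heart of each group crossed into the other's range. The differences were 0.45 ± 0.15 for TAC in control hearts (adjusted p = 0.497), -0.46 ± 0.15 for cKO over control after TAC (adjusted p = 0.563) and -0.59 ± 0.21 for the interaction (adjusted p = 1). The annotation lists a pseudogene, Ndufs5-ps, under another probe set, so near-identical copies may share signal here.

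Ndufa13, an accessory subunit also known as GRIM-19, had values of 10.62, 10.59, 10.71 and 10.68 in cKO TAC hearts, against 10.91, 10.77, 10.72 and 10.88 in control TAC hearts. The groups did not overlap, with 0.01 between the closest hearts, and the difference was -0.17 ± 0.06 (adjusted p = 0.563). Against cKO sham hearts (10.79, 10.74, 10.74 and 10.73) the difference was -0.1 ± 0.06 (adjusted p = 0.769), again without overlap. These differences were -0.105 and -0.0583 without the arrays of high Myl7.

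Ndufs1, the largest iron-sulfur subunit of the electron input arm, had values of 11.06, 10.79, 11.32 and 11.33 in cKO TAC hearts and 11.19, 11.28, 11.54 and 11.44 in cKO sham hearts. The groups overlapped, and the difference was -0.24 ± 0.11 (adjusted p = 0.726), or -0.1258 without cKO TAC replicate 2 and -0.065 without the arrays of high Myl7. Ndufb9, a membrane arm subunit, had 12.15, 12.27, 12.1 and 12.14 in control TAC hearts against 12.4, 12.28, 12.34 and 12.27 in control sham hearts. The groups touched at 12.27, and the difference was -0.16 ± 0.06 (adjusted p = 0.536). Ndufa3, a small accessory subunit, was lower in cKO than in control hearts after sham, with a difference of -0.175 ± 0.0724 (adjusted p = 0.416).

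The 6 measured core subunits of complex I (Ndufs1, Ndufs3, Ndufs7, Ndufs8, Ndufv1 and Ndufv2), which carry the flavin and iron-sulfur clusters or their protein scaffold, and the other 30 genes counted with it were set side by side. For cKO over control after sham, all 6 core subunits lay above 0 (median 0.07), while 11 of the other 30 did (median -0.0312). After TAC, 2 of 6 core subunits lay above 0 (median -0.02) and 8 of the other 30 (median -0.0887). In the interaction all 6 core subunits lay below 0 (median -0.0925), as did 19 of the other 30 (median -0.0775). Ndufs1 lay above 0 there without cKO TAC replicate 2 (0.0067) and without the arrays of high Myl7 (0.0917), while the other 5 core subunits stayed below 0. No test was made between these subsets.

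Ndufa4l2, counted here by its symbol, is known from other work as an oxygen-sensitive relative of Ndufa4, itself now assigned to complex IV. It had the widest range of all 81 genes, 1.08, at a low mean of 6.606. Its values were 6.84, 6.65, 6.45 and 6.63 in cKO TAC hearts and 6.28, 6.09, 6.55 and 6.52 in cKO sham hearts. They were 6.76, 6.8, 6.64 and 7.17 in control TAC hearts and 6.88, 6.4, 6.65 and 6.39 in control sham hearts. TAC over sham was 0.28 ± 0.14 in cKO hearts (adjusted p = 0.731) and 0.26 ± 0.14 in control hearts (adjusted p = 0.641), with overlapping groups. In cKO hearts it was 0.09 without the arrays of high Myl7. The next widest ranges were those of Ndufb3 (1.01), where cKO sham replicate 3 stood at 7.76, and of Atp5k (0.98). The narrowest was that of Cox6c, 0.13.

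In complex III, 7 of 9 subunits lay below 0 for cKO over control after TAC (median -0.1475), and the median was -0.035 without the arrays of high Myl7. Uqcrfs1, the Rieske iron-sulfur protein that takes electrons from coenzyme Q, led them. It had values of 10.4, 10.13, 10.46 and 10.52 in cKO TAC hearts, against 10.73, 10.53, 10.72 and 10.68 in control TAC hearts. The groups stood 0.01 apart at their closest hearts, and the difference was -0.29 ± 0.09 (adjusted p = 0.563), or -0.205 without cKO TAC replicate 2. Uqcr11, a small subunit, differed by -0.245 ± 0.0894 (adjusted p = 0.569). Uqcrc2, a core protein, was higher in cKO than in control hearts after sham surgery, at 12.59, 12.58, 12.71 and 12.55 in cKO sham hearts against 12.46, 12.41, 12.52 and 12.56 in control sham hearts, a difference of 0.12 ± 0.05 with 1 heart of each group in the other's range (adjusted p = 0.427). Cyc1, the cytochrome c1 heme subunit, had the smallest p of the complex for TAC in control hearts, with a difference of 0.085 ± 0.0616 (adjusted p = 0.728).

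In complex IV, Cox6a1 had the smallest p of all subunits. Cox6a1 is the form of subunit 6a found in most tissues, and Cox6a2 the form of heart and skeletal muscle. Cox6a1 had values of 8.97, 8.98, 8.93 and 8.95 in cKO TAC hearts and 9.06, 9.04, 9 and 8.93 in cKO sham hearts. It had 9.4, 9.18, 9.62 and 9.46 in control TAC hearts and 9.26, 8.78, 8.77 and 9.01 in control sham hearts. The control TAC hearts were the highest, overlapping the control sham group through its replicate 1 and lying wholly above both cKO groups.

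The Cox6a1 difference was 0.46 ± 0.10 for TAC in control hearts (unadjusted p = 0.000459, adjusted p = 0.338) and -0.05 ± 0.1041 for TAC in cKO hearts (adjusted p = 0.955). For cKO over control it was -0.46 ± 0.10 after TAC (unadjusted p = 0.000482, adjusted p = 0.411) and 0.0525 ± 0.1041 after sham (adjusted p = 0.884). The interaction was -0.51 ± 0.15 (unadjusted p = 0.00332, adjusted p = 1). These differences were as large without the arrays of high Myl7, at 0.5233 for TAC in control hearts, -0.6 for cKO over control after TAC and -0.58 in the interaction. The spread of Cox6a1 was 0.0222 in cKO TAC hearts, 0.0574 in cKO sham hearts, 0.1821 in control TAC hearts and 0.2316 in control sham hearts (SD, n = 4 each).

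Its muscle form Cox6a2 had values of 11.28, 11.02, 11.21 and 11.1 in cKO TAC hearts against 11.46, 11.49, 11.19 and 11.38 in control TAC hearts, a difference of -0.23 ± 0.10 with overlap (adjusted p = 0.634), or -0.13 without the arrays of high Myl7. For TAC in control hearts its difference was 0.0775 ± 0.099 (adjusted p = 0.853). Cox4i1, the common form of subunit 4, differed by -0.21 ± 0.09 for cKO over control after TAC (adjusted p = 0.634), while its oxygen-sensitive form Cox4i2 differed by 0.04 ± 0.1124 (adjusted p = 0.96). Cox7a1 and Cox8b, the muscle forms of subunits 7a and 8, differed by -0.0675 ± 0.0731 and -0.1 ± 0.056 in that comparison, and their other forms Cox7a2 and Cox8a by -0.1425 ± 0.0795 and -0.0775 ± 0.0879 (adjusted p from 0.715 to 0.888). Cox5a, which binds a subunit encoded by mitochondrial DNA, differed by -0.16 ± 0.07 (adjusted p = 0.644), and Cox6b1, which lies at the contact of the dimer, by -0.04 ± 0.0559 (adjusted p = 0.913). The difference without the arrays of high Myl7 was -0.095 for Cox4i1, -0.04 for Cox7a2 and -0.085 for Cox5a.

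**Figure D4:**
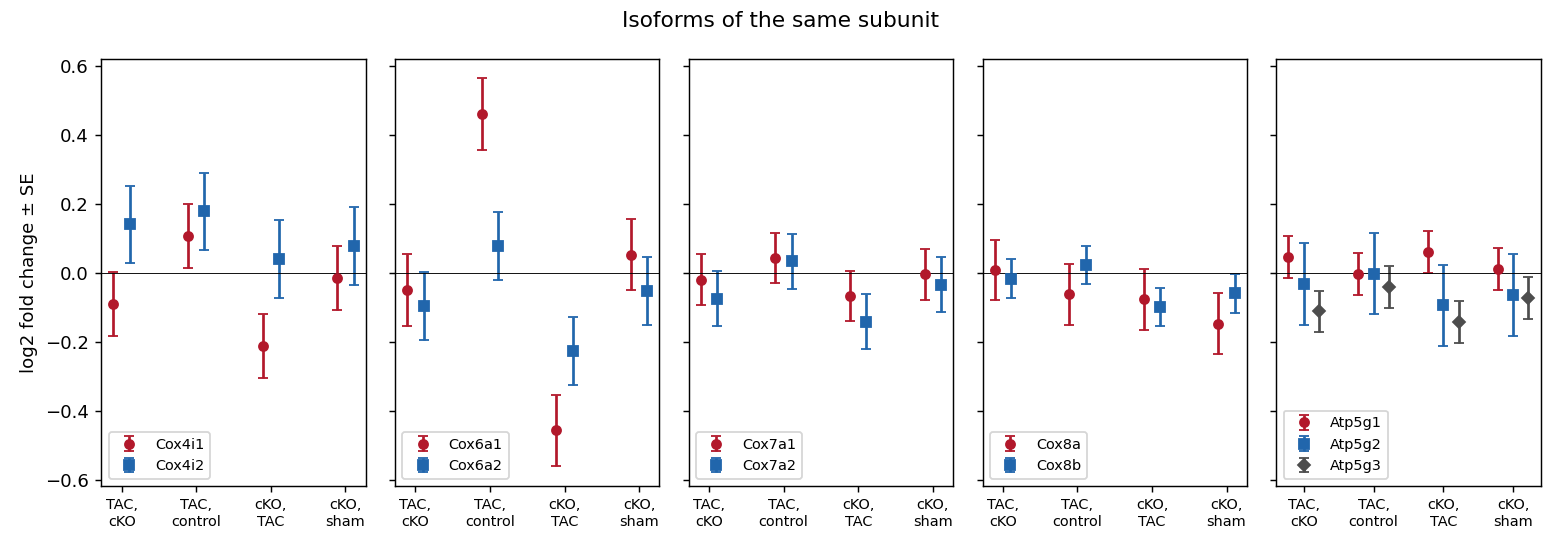
Log2 fold changes (y axis, ± SE of the fit) of genes that encode forms of the same subunit, in 4 comparisons (x axis: TAC over sham in cKO and in control hearts, cKO over control after TAC and after sham). Cox6a1 stands at 0.46 for TAC in control hearts and -0.46 for cKO over control after TAC, and Cox7a1, Cox7a2, Cox8a and Cox8b lie between -0.1475 and 0.0425.

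In the ATP synthase, 15 of 17 genes lay below 0 for cKO over control after TAC (median -0.095), and the median was -0.03 without cKO TAC replicate 2. The interaction median was -0.095, or -0.0217 without the arrays of high Myl7. Of the 5 subunits of the catalytic F1 head (Atp5a1, Atp5b, Atp5c1, Atp5d and Atp5e), all lay below 0 after TAC (median -0.05), and of the other 12 genes 10 did (median -0.11). Atp5b and Atp5c1 were at or above 0 without cKO TAC replicate 2 and without the arrays of high Myl7. Atp5e, the epsilon subunit of the head, had values of 9.94, 9.63, 9.92 and 10.07 in cKO TAC hearts against 10.29, 10.06, 10.15 and 10.32 in control TAC hearts. The groups touched, with cKO TAC replicate 4 at 10.07 and control TAC replicate 2 at 10.06, and the difference was -0.315 ± 0.1149 (adjusted p = 0.569).

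Atp5a1, the alpha subunit of the head, had 12.48, 12.25, 12.5 and 12.48 in cKO TAC hearts against 12.56, 12.64, 12.47 and 12.62 in cKO sham hearts, a difference of -0.145 ± 0.0677 with overlap (adjusted p = 0.731). It was -0.0858 without cKO TAC replicate 2 and -0.06 without the arrays of high Myl7. Atp5d, the delta subunit, was higher after TAC in control hearts by 0.1 ± 0.0441 (adjusted p = 0.587). Atp5mpl, a small membrane subunit, differed between cKO and control hearts by -0.22 ± 0.10 after TAC (adjusted p = 0.634) and by -0.17 ± 0.10 after sham (adjusted p = 0.546, or -0.2717 without the arrays of high Atf3). Atp5k, a membrane subunit at dimer contacts, differed after TAC by -0.325 ± 0.1465 (adjusted p = 0.644). The 3 genes for the c ring, Atp5g1, Atp5g2 and Atp5g3, encode the same mature protein, and differed by 0.06 ± 0.0611, -0.095 ± 0.1178 and -0.1425 ± 0.0608 after TAC (adjusted p from 0.634 to 0.899). For Atp5g2 and Atp5g3 the values without the arrays of high Myl7 were 0.05 and -0.09.

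Genes that build or serve the chain were read beside the subunits, from lists drawn up by function. Of 49 assembly factors, 44 were tested and 0 passed an adjusted p of 0.05 in any comparison. For TAC over sham, 18 lay above 0 and 24 below in cKO hearts (median -0.015), against 40 above and 4 below in control hearts (median 0.1013). Of all probe sets, 51.6% were above 0 and 47.5% below in cKO hearts, and 54.5% and 44.7% in control hearts. For cKO over control, 20 lay above 0 and 24 below after TAC (median -0.0138), and 38 above and 6 below after sham (median 0.1137). Of all probe sets, 47.9% were above 0 and 51.2% below after TAC, and 50.1% and 49.2% after sham. In the interaction 7 lay above 0 and 37 below (median -0.1238), where 46.5% and 52.8% of all probe sets were. The counts of this list and of those below were not read without single arrays. Sdhaf1, a factor for the iron-sulfur subunit of complex II, was higher after TAC by 0.315 ± 0.1075 in cKO hearts (adjusted p = 0.707) and by 0.36 ± 0.11 in control hearts (adjusted p = 0.467), whereas the complex II subunits were below 0 in cKO hearts. Cox18, an insertase for a complex IV subunit, was higher in cKO than in control hearts by 0.43 ± 0.15 after TAC (adjusted p = 0.563) and by 0.42 ± 0.15 after sham (adjusted p = 0.382).

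Of 17 genes for electron carriers and coenzyme Q synthesis, 16 were tested and 0 passed the adjusted threshold. For cKO over control, 8 lay above 0 and 8 below after TAC (median -0.0038), and 12 above and 4 below after sham (median 0.0725). After sham, Coq6, a hydroxylase of coenzyme Q synthesis, differed by 0.31 ± 0.11 (adjusted p = 0.373). For TAC over sham, 4 lay above 0 and 11 below in cKO hearts (median -0.0713), and 11 above and 5 below in control hearts (median 0.0675). In the interaction 3 of these genes lay above 0 and 13 below (median -0.1275). A further list held the ATP synthase inhibitor, carriers of adenine nucleotides and phosphate, the outer membrane channels Vdac1 to Vdac3 and the creatine kinase Ckmt2. Of its 9 genes, 8 were tested and 0 passed the adjusted threshold. For cKO over control, 6 lay above 0 after TAC (median 0.035) and 8 of 8 after sham (median 0.0875). For TAC over sham, 1 lay above 0 and 7 below in cKO hearts (median -0.0713), and 5 above and 3 below in control hearts (median 0.0125). In the interaction 2 of them lay above 0 and 6 below (median -0.0663). Of all probe sets, 47.9% were above 0 for cKO over control after TAC and 50.1% after sham. For TAC over sham 51.6% of all probe sets were above 0 in cKO hearts and 54.5% in control hearts, and in the interaction 46.5% were. Of 13 subunits encoded by mitochondrial DNA, 2 had a probe set of their own. COX2, a copper-binding core subunit of complex IV, had values of 13.52, 13.51, 13.5 and 13.54 in cKO TAC hearts against 13.46, 13.44, 13.36 and 13.35 in control TAC hearts. The groups did not overlap (2.38% of all probe sets were higher without overlap), and the difference of 0.115 ± 0.054 was opposite in sign to most nuclear subunits (adjusted p = 0.657). ND3, a complex I subunit, differed by 0.01 ± 0.0802 (adjusted p = 0.99).

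Of the 81 genes, 17 had more than 1 tested probe set. All probe sets of a gene shared 1 sign in 11 of the 17 genes for cKO over control after TAC and in 12 after sham. For TAC over sham they did so in 12 of 17 genes in cKO hearts and in 14 in control hearts. Cox6a1, Ndufs5, Uqcrfs1 and the complex II genes each had 1 probe set of their own, so no other probe set can be set beside their values.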

How the data were processed

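Heart RNA of 16 mice was hybridised to Affymetrix arrays, 1 per mouse. The authors deposited log2 values for 35556 probe sets, and the submitters' processing notes name MAS5 without a version. The scale was read from the values: quartiles nearly coincide between arrays (25th percentile 3.73 to 3.85, 75th 6.82 to 6.93), and the sources used here name no scaling method. Such scaling removes shifts shared by all genes of an array. Precision is limited by the small number of arrays.

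Groups came from sample titles and treatment labels; the labels' treatment text names TAC for sham samples too. Symbols are those of the platform annotation, and all 83 members had the same symbol in RefSeq. Probe sets with several symbols were not named. Probe sets with a mean above the 40th percentile (4.369) were tested, 21333 in all, with limma 3.58.1 in R 4.3.3: a mean per group over 16 arrays (12 residual degrees of freedom), two-sided moderated tests with a variance trend and Benjamini-Hochberg adjustment. Errors of differences are standard errors of that fit. Comparisons numbered 7.

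Members, gene lists and tests were chosen with earlier results of these data known, and no list was tested as a set. Genes are named by a rule: the 3 smallest p per comparison, the smallest p of each complex in each comparison of 2 groups, isoforms, complex II, the 3 widest ranges and members without overlap. Other members at an unadjusted p under 0.05, single genes of the assembly, carrier and coenzyme Q lists, and the split of complexes I and V were added after their values were seen. Same-numbered replicates of different groups did not deviate together more than other pairs (correlations -0.205 to 0.193, against -0.327 to 0.252). The fit was tested on simulated data. Alternatives were other normalizations, filters and fits, and leaving out each array. Leaving out arrays by Myl7 or Atf3 was added after seeing the data. Figures used matplotlib 3.10.9.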

Additional observations from a re-analysis of the deposited data

Results flagged for a closer look

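In 8 of 128 groups of 4 hearts, over 32 named subunit genes, 1 heart stood far from the other 3, its gap to the nearest, over the group's range, exceeding Dixon's critical value. Chance flags about 1 in 20 groups, so 8 of 128 is close to that share. On cKO TAC replicate 2, Atp5a1 stood low at 12.25, against 12.48 to 12.5 in the other 3 hearts, and Cox7a1 low at 12.79, against 13.04 to 13.09. On cKO TAC replicate 3, Cox8a stood low at 9.83, against 10.01 to 10.03. In cKO sham hearts, Cox6b1 stood high at 12.58 on replicate 3, against 12.46 to 12.47. Ndufa13 stood high there at 10.79 on replicate 1, against 10.73 to 10.74. Ndufa3 stood low at 10.9 on replicate 2, against 11.08 to 11.11. In control hearts, Uqcrc2 stood high at 12.52 on TAC replicate 4, against 12.45 to 12.46, and Uqcrfs1 high at 10.72 on sham replicate 1, against 10.48 to 10.51.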

How the results depend on the processing

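No subunit gene was called in any of 186 combinations of an alternative and a comparison, so all calls of 0 held under the alternatives run, with the replicate block also giving 0 in each comparison. The median of the 81 subunits stayed below 0 under every alternative for cKO over control after TAC (-0.1117 to -0.0242), for TAC in cKO hearts (-0.0767 to -0.0075) and for the interaction (-0.1412 to -0.0325), and above 0 for TAC in control hearts (0.0117 to 0.0667). In control hearts the median of all probe sets was above 0 too (0.015). Without control sham replicate 2, that of the subunits (0.0117) lay below that of all probe sets (0.0175). For cKO over control after sham (-0.0275 to 0.0512) and for TAC averaged over genotype (-0.0283 to 0.0163) it took both signs, within the spread between replicates. Without the arrays of high Myl7, the complex II medians were -0.0658 (TAC in cKO hearts), -0.1608 (interaction) and -0.0225 (cKO over control after TAC, against -0.13), those of complex III -0.035 (cKO over control after TAC) and 0.0175 (averaged over surgery, where the sign turned), and that of complex V -0.0217 (interaction). Leaving out single arrays, the complex V median for cKO over control after TAC ranged from -0.1217 to -0.03. The cause of these shifts was not tested. Sdhb in control hearts after TAC (-0.0025) turned to 0.0262 with median centring, ranged from -0.0317 to 0.0258 without single arrays (above 0 when control TAC replicate 1 or 2, or control sham replicate 2 or 3, was left out), and was 0.05 without the arrays of high Myl7. Counts of probe sets called over the whole array were unstable: 0 to 27 across alternatives against 5 for cKO over control after sham, 0 to 2 against 1 after TAC, 1 to 81 against 4 averaged over surgery, 0 to 5 against 0 for TAC in control hearts, 0 to 1 against 0 for TAC in cKO hearts and averaged over genotype, and 0 throughout for the interaction. With the replicate block, 16 subunits were lower at an unadjusted p under 0.05 in cKO over control after TAC, against 14, and the median was -0.085 as before. Over all tested probe sets, same-numbered hearts showed no closer relation: 3 of 16 samples correlated best with their own number. Whether same-numbered hearts were handled together was not tested.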
